A study of Mus musculus with 23 samples.

Results

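Matricellular genes were compared across clonal preadipocyte lines, meaning fat cell precursors each grown up from a single cell. The 8 genes were chosen by symbol: Sparc and its relative Sparcl1, the thrombospondins Thbs1 and Thbs2, Sned1, Mamdc2, Postn and Tnc. They are 8 of 18194 genes on the array and are read by 14 probe sets that carry a single gene symbol, of 45101 probe sets in all. A gene with several probe sets is represented by the one that averaged highest, and levels are log2 signal, so that a difference of 1 is a factor of 2. All 8 had been picked with differences between the line types in view, so their values by type are a description, with no test.

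The lines were cloned from the stromal vascular fraction, the non-fat cells, of 2 white fat depots, subcutaneous and perigonadal, taken from 1 male Immortomouse at 8 weeks of age. Immortomouse cells divide at low temperature through an interferon-inducible, heat-labile T antigen. All 23 lines shared this transgenic background and were grown at 33 °C with interferon gamma at 10 units/mL, and each was measured on 1 array. By the labels, 3 lines were Type 1 (all PGF), 5 Type 2 (4 SCF and 1 PGF), 8 Type 3 (4 SCF and 4 PGF) and 7 Other, a label given to lines of no numbered type (4 SCF and 3 PGF). SCF and PGF open the clone names and are read as the subcutaneous and perigonadal depots. A differentiation score is given for each line on a scale from 1 to 4. It was 2 in all 3 Type 1 lines, 2 or 4 in Type 2, and 2, 3 or 4 in Type 3 and Other. Lipid staining after induction was used to judge the capacity to form fat cells, but the labels do not state which end of the score means more lipid. The types had been formed from the expression data itself, and every line came from 1 animal, so any p-value measures only the spread between clones. In a bulk sample, fewer cells of a kind and less RNA per cell cannot be told apart.

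Matricellular proteins are secreted into the extracellular matrix and adjust how cells attach and respond to it more than they bear load. SPARC binds collagen and is known as a brake on fat cell formation, thrombospondins bind cell surface receptors such as CD47 and CD36, and thrombospondin 1 can release active TGF-beta from its latent form. Periostin and tenascin-C, encoded by Postn and Tnc, are made by activated fibroblasts and bind integrins. Sned1 encodes a matrix glycoprotein and Mamdc2 a secreted protein with MAM domains.

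Across the libraries, array medians lay between 5.09 and 5.16, and array pairs correlated at 0.937 to 0.992. Of the fibroblast or preadipocyte markers 7 were in the table, and 5 to 7 of them were above the table median of 5.13 in every line of a group. Of the mature adipocyte markers 4 were in the table. Adipoq, the adipocyte hormone, averaged 3.10 to 3.68 by group with a highest line at 6.48. Lep (at most 3.2) and Cidec (at most 3.77) were below the table median in all lines, while Retn was above it in all lines (5.26 to 6.47). Of 5 macrophage or leukocyte genes, Ptprc (at most 3.61) and Adgre1 (at most 3.82) were below the table median in all lines, Lyz2 reached 5.47 and Cd68 7.66, and Csf1r averaged 6.97 to 10.32 by group. Of 4 endothelial genes, Pecam1 (at most 3.76) and Cdh5 (at most 4.39) were below the table median in all lines. Kdr averaged 6.10 to 8.29 by group and Tek 4.14 to 7.49. Of 4 pericyte genes, Cspg4 ran from 5.47 to 6.17, and Rgs5 reached 4.78, Kcnj8 5.16 and Abcc9 5.35. The 2 Schwann genes in the table were Sox10 (5.89 to 6.52) and S100b (4.61 to 7.82). Of 4 skeletal muscle genes, Acta1 ran from 5.27 to 7.71 and Ckm from 5.55 to 6.07. Myod1 (at most 4.56) and Myog (at most 4.27) were below the median. The mesothelial list set Type 1 apart: 6 of its 7 genes were above the table median in every Type 1 line, and its mean over genes lay between 9.57 and 10.44 in the Type 1 lines and between 3.97 and 5.51 in the other lines. The remaining gene, Krt19, went the other way, averaging 5.49 in Type 1, 7.78 in Type 2, 6.33 in Type 3 and 7.28 in Other. RNA quality was read from actin, as the signal of its 3' probe set less that of its 5' probe set. It came to 1.58 in Type 1 line 1 and to 0.53 to 1.00 in the other 22 lines. The part of these other genes in the members' values was not tested.

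**Figure D1:**
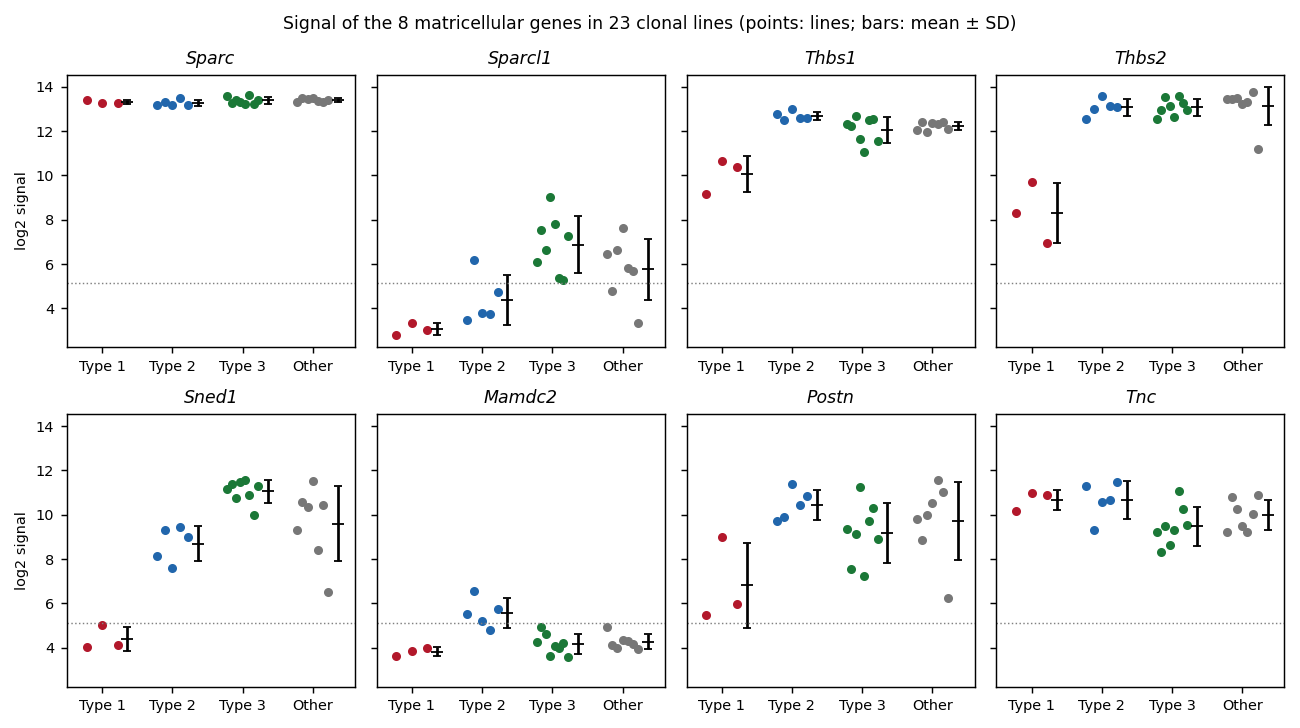
Log2 signal (vertical axis) of the 8 genes by line type (horizontal axis), with each point a line, bars the mean ± SD beside the points and the dotted line the table median of 5.13. Thbs1, Thbs2 and Sned1 lay lower in the 3 Type 1 lines than in any other line, Mamdc2 was highest in Type 2, and Sparc stayed between 13.17 and 13.64 in all 23 lines.

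Sparc was the gene that hardly moved. Its signal was 13.41, 13.27 and 13.28 in the Type 1 lines and 13.17, 13.34, 13.19, 13.51 and 13.18 in the Type 2 lines. In Type 3 the lowest, median and highest values were 13.22, 13.36 and 13.64, and in Other 13.30, 13.40 and 13.49. All groups overlapped, and the whole range over 23 lines was 0.47. Its SD over the lines, 0.13, was smaller than that of all but 6.4% of the 12308 genes tested, whose median SD was 0.24. Its mean of 13.36 was higher than that of 99.7% of these genes, in a table that ends at 14.46. Whether signal is compressed at that level was not tested. Of its other 2 probe sets, 1 followed the main one within groups (r = 0.90 of the deviations from group means, 23 lines) and the other did not (r = -0.01). The former ran from 12.16 to 12.87 over the lines and the latter from 5.99 to 6.47.

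Its relative Sparcl1, which encodes a SPARC-like secreted protein also called hevin, was low and variable. The Type 1 lines held 2.81, 3.36 and 3.04 and the Type 2 lines 3.45, 6.19, 3.80, 3.74 and 4.75. Type 3 had a lowest value of 5.28, a median of 6.94 and a highest of 9.01, and Other 3.33, 5.83 and 7.61. Every Type 1 line lay below every Type 2 and Type 3 line, but Other line 7 lay within the range of Type 1, and Types 2 and 3 overlapped. By group mean the order was Type 3 (6.87 ± 1.28, SD, n = 8), Other (5.76 ± 1.39, n = 7), Type 2 (4.39 ± 1.12, n = 5) and Type 1 (3.07 ± 0.27, n = 3), with Type 3 and Other, and Other and Type 2, overlapping. Type 2 minus Type 3 was -2.49 ± 0.65 (SE). Of the Type 1 lines 0 and of the Type 2 lines 1 were above the table median, against all 8 in Type 3. Values near 3 are toward the lower end of the table, which starts at 2.03. A fold change there may be understated, which was not tested.

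Both thrombospondins were lower in Type 1. Thbs1, which encodes thrombospondin 1, read 9.15, 10.67 and 10.38 in the Type 1 lines and 12.77, 12.49, 12.99, 12.61 and 12.57 in the Type 2 lines. In Type 3 the lowest, median and highest values were 11.06, 12.27 and 12.68, and in Other 11.98, 12.31 and 12.41. All 3 Type 1 lines were below every one of the other 20 lines. Type 2 lay just above all Other lines, and Type 3 overlapped both. Type 1 minus the mean of Types 2 and 3 was -2.31 ± 0.28, a 4.95-fold difference. Type 1 line 1, the line with the high actin value, was the lowest, and without it the difference was -1.85. That line was also the lowest Type 1 line for Sparcl1, Sned1, Mamdc2, Postn and Tnc, but not for Thbs2 or Sparc.

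Thbs2 showed a wider gap. Its signal was 8.31, 9.69 and 6.97 in the Type 1 lines and 12.54, 13.00, 13.59, 13.15 and 13.08 in the Type 2 lines. Type 3 ran from 12.57 through a median of 13.04 to 13.58, and Other from 11.20 through 13.45 to 13.77. Type 1 lay below all 20 other lines by at least the distance from 9.69 to 11.20, and Types 2 and 3 had the same mean within their spread (13.07 ± 0.38 and 13.08 ± 0.38). Type 1 minus the mean of Types 2 and 3 was -4.75 ± 0.44, or 27.0-fold. The 3 Type 1 lines had an SD of 1.36 among themselves. With each line left out in turn the difference ran from -5.44 to -4.08.

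Sned1 separated all 3 numbered types. The Type 1 lines held 4.03, 5.01 and 4.12, all under the table median, and the Type 2 lines 8.15, 9.31, 7.60, 9.44 and 8.98. The Type 3 lines had a lowest value of 9.99, a median of 11.23 and a highest of 11.58. Other spread from 6.52 through 10.36 to 11.54 and covered the range of Type 2 and most of that of Type 3. No Type 1 line reached a Type 2 line, and no Type 2 line reached a Type 3 line. Group means were 4.39 ± 0.54, 8.69 ± 0.79 and 11.07 ± 0.52. Type 2 minus Type 3 was -2.37 ± 0.58 and Type 1 minus the mean of Types 2 and 3 was -5.50 ± 0.65. With the Type 1 lines at the low end of the scale and no detection calls in hand, no fold is given for the latter.

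Counted over the members, 4 of 8 (Sparcl1, Thbs1, Thbs2 and Sned1) had every Type 1 line below every Type 2 and Type 3 line, where 9.21% of all tested genes did so, and 0 had every Type 1 line above them (11.3% of all tested genes). Against all 20 other lines it was 3 of 8, without Sparcl1 (5.89% of all genes lower and 7.86% higher). Between Types 2 and 3 only Sned1, lower in Type 2, did not overlap (1.44% of all genes lower in Type 2 without overlap). Because the genes were picked on type differences, nothing is read from these shares.

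The bases before the start sites of the 2 members with the widest Type 1 gap, Thbs2 and Sned1, and of Tnc, whose mean was not lower in Type 1, are shown so that their promoters can be compared. RefSeq sequence of build GRCm38.p6 was matched by symbol for 5 of the 8 members, and each window is the 250 bases upstream of the listed start, on the gene's strand. Where 2 starts were listed, as for Tnc, the one farthest downstream was taken. Capitals mark matches, on either strand, to 6 motifs searched, namely the core promoter letters TATAAA, the CCAAT box, the AP-1 letters TGANTCA, the TEAD letters GGAATG, the EGR letters GCGNGGGCG and the CArG box.
Thbs2, chr17:14694263-14694512, minus strand: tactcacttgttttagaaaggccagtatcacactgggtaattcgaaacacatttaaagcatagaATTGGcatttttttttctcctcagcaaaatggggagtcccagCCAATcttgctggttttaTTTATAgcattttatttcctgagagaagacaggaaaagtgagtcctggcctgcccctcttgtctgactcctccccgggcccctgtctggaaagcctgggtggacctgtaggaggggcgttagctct
Sned1, chr1:93235647-93235896, plus strand: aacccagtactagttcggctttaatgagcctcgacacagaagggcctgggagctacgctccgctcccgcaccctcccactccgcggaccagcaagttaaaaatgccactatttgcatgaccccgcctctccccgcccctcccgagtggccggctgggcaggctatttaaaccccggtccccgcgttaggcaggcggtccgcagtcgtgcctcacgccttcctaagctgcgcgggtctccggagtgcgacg
Tnc, chr4:64046937-64047186, minus strand: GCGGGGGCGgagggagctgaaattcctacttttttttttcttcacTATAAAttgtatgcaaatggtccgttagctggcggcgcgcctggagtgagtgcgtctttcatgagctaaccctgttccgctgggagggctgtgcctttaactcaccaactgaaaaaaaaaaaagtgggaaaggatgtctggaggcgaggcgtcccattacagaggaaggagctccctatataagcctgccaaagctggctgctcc
The Thbs2 window held CCAAT on both strands, at 144 and 186 bases before the start, and TATAAA on the minus strand at 126. In the Sned1 window 0 of the 6 motifs matched. The Tnc window held TATAAA 205 bases before the start and the EGR letters at 250. CCAAT is present in 33.8% of the 32851 windows of this length in the RefSeq table, TATAAA in 12.4% and the EGR letters in 4.70%. TGANTCA is in 6.75% of them, GGAATG in 12.6% and the CArG box in 1.47%. A match describes letters only and shows no binding, and a window without a match says nothing about a factor.

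Mamdc2 had its highest group mean in Type 2, as did Thbs1, Postn and, by a small margin, Tnc. The Type 2 lines held 5.52, 6.56, 5.19, 4.81 and 5.76 and the Type 1 lines 3.61, 3.84 and 4.01. In Type 3 the lowest, median and highest values were 3.59, 4.16 and 4.94, and in Other 3.96, 4.15 and 4.96. Type 2 line 4 fell inside the ranges of Type 3 and Other, and the other 4 Type 2 lines were above all remaining lines. These 4 were also the only lines above the table median, so Mamdc2 passed the filter on low values through Type 2 alone and a difference there was bound to appear. Type 2 minus Type 3 was 1.40 ± 0.25, and 0.91 when an offset of 16 was added on the linear scale.

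Postn varied widely inside each group. It read 5.47, 9.00 and 5.98 in the Type 1 lines and 9.71, 9.90, 11.37, 10.43 and 10.83 in the Type 2 lines. Type 3 ran from 7.22 through 9.23 to 11.26 and Other from 6.24 through 9.98 to 11.56. Type 1 line 2 fell within Type 3 and Other but below Type 2. Type 1 minus the mean of Types 2 and 3 was -2.99 ± 0.88. With each line left out in turn it ran from -4.08, without Type 1 line 2, to -2.32, without Type 1 line 1. Group means were 6.82 ± 1.91, 10.45 ± 0.68, 9.18 ± 1.34 and 9.71 ± 1.77 for Types 1, 2 and 3 and Other. Type accounted for 39.6% of the sum of squares over the lines, against 85.9% for Thbs2, 82.0% for Sned1, 77.6% for Thbs1, 67.6% for Mamdc2, 58.3% for Sparcl1, 32.9% for Tnc and 15.5% for Sparc. The median over all tested genes was 28.3%. Because the members were picked on type differences, nothing is read from their place against that median.

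Tnc was not lower in Type 1. Its values there were 10.16, 10.97 and 10.87, and in the Type 2 lines 11.29, 9.33, 10.57, 10.69 and 11.49. Type 3 ran from 8.31 through 9.40 to 11.08 and Other from 9.21 through 10.05 to 10.88. The groups overlapped throughout, with means of 10.67 ± 0.44, 10.67 ± 0.85, 9.48 ± 0.88 and 9.99 ± 0.70 for Types 1, 2 and 3 and Other. Type 2 minus Type 3 was 1.19 ± 0.42, the opposite sign to Sparcl1 and Sned1. Thbs1 (0.62 ± 0.25), Postn (1.27 ± 0.78) and Mamdc2 had the same sign as Tnc. Sparc (-0.11 ± 0.08) and Thbs2 (-0.004 ± 0.39) were slightly negative.

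**Figure D2:**
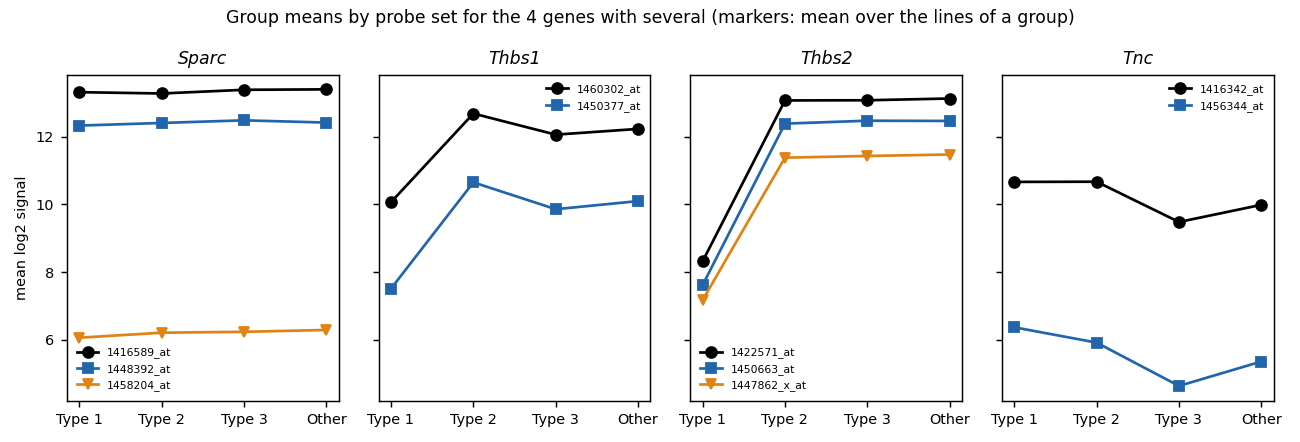
Mean log2 signal (vertical axis) by line type (horizontal axis) for each probe set of the 4 members with more than 1, each marker being the mean over the lines of a group. The 2 Thbs1 and the 3 Thbs2 probe sets all drop in Type 1, and the 2 Tnc probe sets are lowest in Type 3, at 9.48 and 4.64.

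The thrombospondin probe sets moved alike. Type 1 minus the mean of Types 2 and 3 was -2.74 in the second Thbs1 probe set, and -4.81 and -4.23 in the other 2 Thbs2 probe sets. Their deviations from group means followed the main probe set with r of 0.97 for Thbs1 and of 0.97 and 0.92 for Thbs2. For Tnc this r was 0.87, and the Type 1 difference was 1.09 in the second probe set and 0.59 in the main one. A further probe set that lists Thbs1 together with another gene was not used.

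It was then asked whether the members' levels followed the differentiation score inside the types. Score was fitted as a number with group in the model, in limma over all 12308 genes and 23 lines, and p-values were adjusted over all of them by the Benjamini-Hochberg method. No gene of the 12308 passed (0%, the share for this comparison), with 872 at an unadjusted p below 0.05, and accordingly 0 of 8 members passed. The smallest adjusted p of any gene was 0.315.

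Sparcl1 had the largest slope of the members, 0.97 ± 0.26 log2 per point of the score (unadjusted 95% interval 0.43 to 1.51, adjusted p = 0.399), and stood 34th of 12308 by unadjusted p. In Type 2 the 3 lines of score 2 held 3.45, 3.80 and 3.74 and the 2 lines of score 4 held 6.19 and 4.75, without overlap. In Type 3 the lines of score 2 averaged 5.95 ± 0.95 (n = 2), those of score 3 averaged 6.57 ± 1.02 (n = 4) and those of score 4 averaged 8.40 ± 0.86 (n = 2). In Other the means were 4.92 ± 1.65 (n = 3) at score 2 and 6.59 ± 0.97 (n = 3) at score 3, and the 1 line of score 4 held 5.83. The mean was thus higher at each higher score in Types 2 and 3, while in Other the single line of score 4 lay below the mean of score 3.

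With depot added to the model, an alternative fit, Sparcl1 passed the threshold. The slope was then 1.21 ± 0.20 (interval 0.80 to 1.62, adjusted p = 0.0361, limma), and 2 genes passed in all, the other being Csrnp1 (-0.44 ± 0.06, adjusted p = 0.0176), named because the count is small. That call rests on the lines included. Without depot the slope ran from 0.84 to 1.14 and the adjusted p from 0.252 to 0.589 over refits that each left out 1 line. With depot it held in 7 of 23 such refits, with slopes of 1.11 to 1.30 and adjusted p-values from 0.00361 to 0.162, the largest without Other line 7. Without the 3 Type 1 lines it was 1.21 with an adjusted p of 0.0995. The refits that both held depot and left out lines were added after the values were seen.

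Tnc went the other way, at -0.46 ± 0.19 per point (interval -0.86 to -0.06, adjusted p = 0.661), and at -0.63 ± 0.15 with depot in the model (adjusted p = 0.120). In Other the lines of score 2 held 10.79, 10.27 and 10.88, above the lines of score 3 (9.21, 9.50 and 10.05) and the line of score 4 (9.24). In Type 2 the 2 lines of score 4 lay at the bottom and the top of the group, at 9.33 and 11.49, so no order was seen there. With a line left out the slope ran from -0.66 to -0.35, and the second Tnc probe set gave -0.54 ± 0.22.

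**Figure D3:**
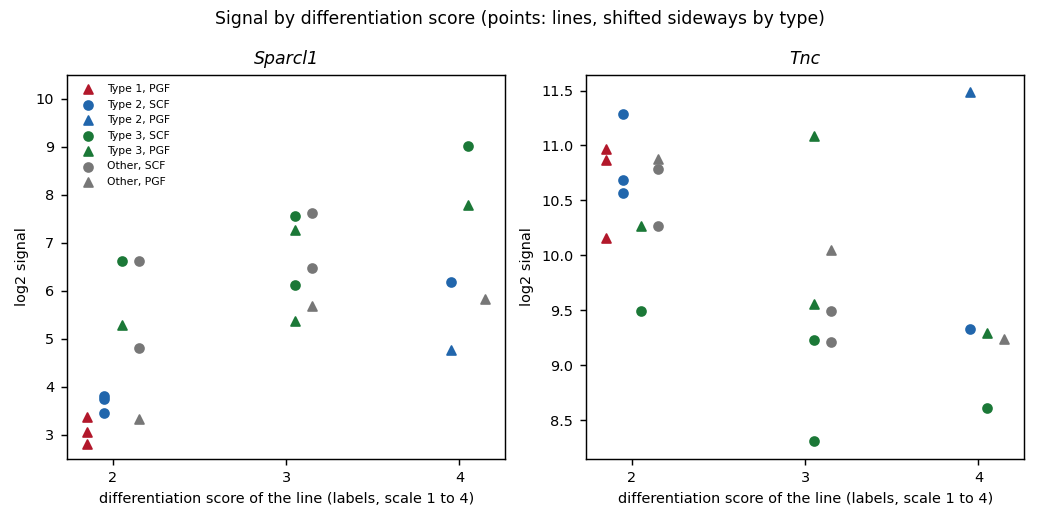
Log2 signal (vertical axes) of Sparcl1 and Tnc against the differentiation score of each line (horizontal axis, 2 to 4), with colour for type, circles for SCF and triangles for PGF lines. All Sparcl1 values at or below 4 belong to lines of score 2, and the 2 highest Sparcl1 lines are Type 3 lines of score 4.

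The remaining slopes on the differentiation score had intervals that included 0. They were 0.38 ± 0.39 for Postn, 0.35 ± 0.29 for Sned1, 0.16 ± 0.12 for Mamdc2, 0.02 ± 0.20 for Thbs2, -0.02 ± 0.04 for Sparc and -0.23 ± 0.12 for Thbs1, with adjusted p-values from 0.716 to 0.992. Single lines moved several of them: without Other line 7 the slope was 0.15 for Postn and 0.15 for Sned1, and without Type 2 line 2 it was 0.047 for Mamdc2. The highest slopes with a line left out were 0.62 for Postn, 0.58 for Sned1 and 0.23 for Mamdc2. That of Thbs1 ran from -0.29 to -0.15, the latter without Type 3 line 5. For Sparc the interval ran from -0.11 to 0.06, a narrow range. For Postn it ran from -0.44 to 1.20, which includes a doubling per point.

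The media acidification score, also from 1 to 4 with its direction not stated, gave 0 of 8 members and 0 of 12308 genes past the threshold (0%), with 1516 genes at an unadjusted p below 0.05. Sned1 had the largest slope, 0.42 ± 0.17 per point (interval 0.07 to 0.77, adjusted p = 0.331, limma). Sparcl1 followed at 0.26 ± 0.21 and Tnc at -0.20 ± 0.13, and the other 5 lay between -0.0047 (Thbs1) and 0.11 (Thbs2 and Postn).

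Depot differences are PGF minus SCF in a fit that also held group, so that the all-PGF Type 1 lines add nothing to the difference. Again 0 of 8 members and 0 of 12308 genes passed (0%), with 1034 at an unadjusted p below 0.05. The largest differences were -0.86 ± 0.52 for Sparcl1 (adjusted p = 0.654), -0.80 ± 0.45 for Sned1 (adjusted p = 0.641) and 0.73 ± 0.32 for Tnc (adjusted p = 0.562). With the differentiation score in the model, a fit added after the values were seen, they were -1.41 ± 0.32, -1.03 ± 0.44 and 1.02 ± 0.24, with adjusted p-values of 0.132, 0.380 and 0.132. In the fit without the score, leaving out Other line 7 took the difference to -0.55 for Sparcl1 and -0.37 for Sned1. With each line left out in turn that of Tnc ran from 0.56 to 0.92. In Type 3 the 4 SCF lines averaged 8.91 ± 0.55 for Tnc and the 4 PGF lines 10.05 ± 0.80, with overlap, while in Other the means were 9.94 ± 0.72 (n = 4) and 10.05 ± 0.82 (n = 3). Sned1 differed little in Type 3 (11.19 ± 0.32 in SCF, 10.95 ± 0.70 in PGF) and more in Other (10.45 ± 0.92 and 8.47 ± 1.97). The difference between these depot effects, 1.73 ± 0.94 for Sned1 and 1.02 ± 0.69 for Tnc as Type 3 minus Other, did not pass (adjusted p = 0.626 and adjusted p = 0.718), and 0 of 12308 genes passed it (0%, with 1096 at an unadjusted p below 0.05, limma). With a line left out the Sned1 value ran from 0.76, without Other line 7, to 2.73, without Other line 6, and that of Tnc from 0.62, without Other line 5, to 1.44.

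**Figure D4:**
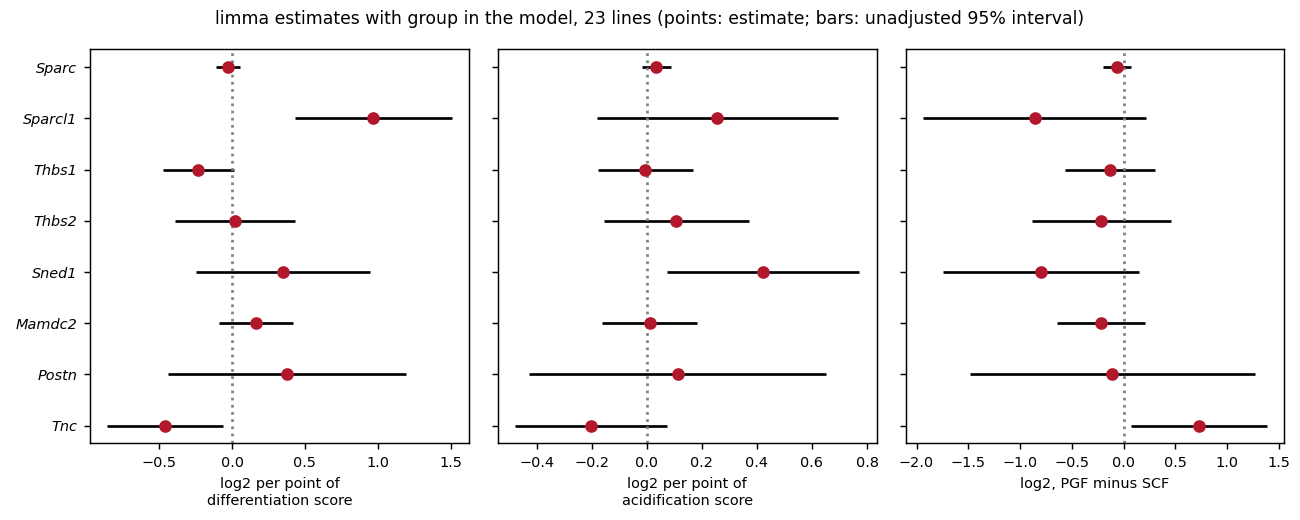
limma estimates (points) with unadjusted 95% intervals (bars) for the 8 genes, in log2 per point of the differentiation score, per point of the acidification score, and for PGF minus SCF (horizontal axes), each with group in the model over 23 lines. Sparcl1 and Tnc have intervals on opposite sides of 0 for the differentiation score, and 0 of the 24 estimates passed after adjustment over all genes.

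Inside the groups, some members moved together from line to line. The r of deviations from group means over 23 lines, given as a description because the lines share a donor animal, was 0.73 for Thbs2 with Postn and 0.65 for Sparcl1 with Sned1. The lowest of the 28 pairs was Sparcl1 with Tnc at -0.72. The value was 0.28 for Thbs1 with Thbs2 and -0.18 for Sparc with Sparcl1. Other line 7, singled out after its values were seen, carried low values of Thbs2 (11.20), Postn (6.24), Sned1 (6.52) and Sparcl1 (3.33), each the lowest of its group. Its Mamdc2 (3.96) was also the lowest of the group and its Tnc (10.88) the highest. Its Thbs1 (12.10) lay within the range of the other Other lines. The r of the pairs was not computed without single lines, so how far it rests on that line was not tested. The mesothelial factor Wt1 was at 3.53 in that line. It was at 4.67 or below in all Other lines, against 10.40 to 10.65 in Type 1. For the rest of the mesothelial list, the highest Other values were 7.08 for Upk3b, 7.20 for Upk1b, 6.11 for Krt18 and 9.76 for Krt19. They were 4.365 for Lrrn4 and 3.655 for Msln. Values of these genes in Other line 7 alone were not read out, so its likeness to Type 1 was not tested.

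By the same measure, the genes most like each member were named. Sparcl1 was closest to the semaphorin Sema3c (0.86), the dynamin Dnm1 (0.85) and the progenitor surface gene Cd34 (0.83), and farthest from the hexokinase Hk2 (-0.86). Sned1 was closest to Srgap2 (0.87), Clmp (0.84) and Gas1 (0.84), and Thbs2 to the lysophosphatidic acid receptor Lpar1 (0.84), the phospholipase Pla1a (0.80) and Srpx2 (0.79). Postn was closest to Dpep1 (0.74), Calu (0.74) and Thbs2 (0.73), Tnc to the cytokine Tnfsf11 (0.77), Mir155hg (0.75) and Apoh (0.72), and Thbs1 to Prrt1 (0.79), Txnl1 (0.74) and Cbln1 (0.73). Mamdc2 was closest to Miip (0.76), Irx1 (0.75) and Rgmb (0.71). Sparc was closest to Wdr11 (0.75), Musk (0.75) and the collagen gene Col1a1 (0.74), although its own SD was only 0.13. Such values are the highest out of 12308 genes, so some of them are large by selection alone.

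**Figure D5:**
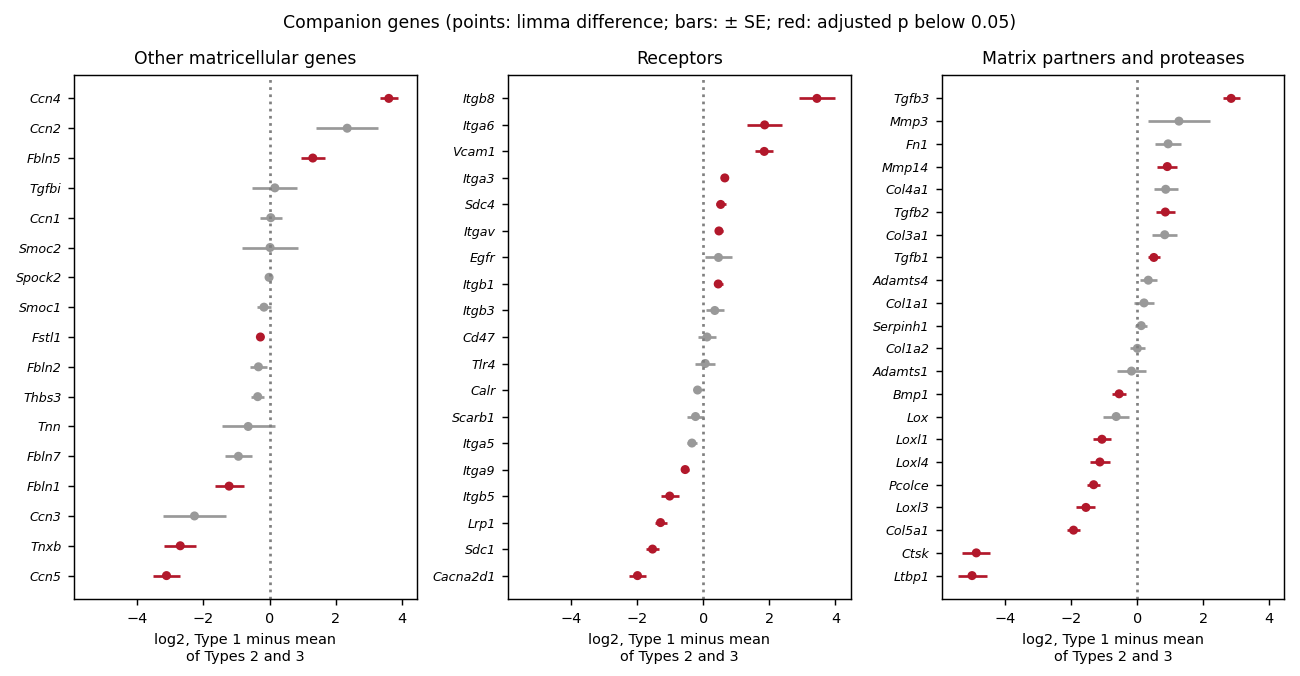
Type 1 minus the mean of Types 2 and 3 in log2 (horizontal axis) for the tested genes of 3 companion lists. Points are the limma difference and bars ± SE, and genes at an adjusted p below 0.05 in limma are red. Of the 58 genes 13 were higher and 17 lower in Type 1, led by Ccn4 and Itgb8 upward and by Ltbp1 and Ctsk downward.

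The genes around the members were read from 3 lists, of which 58 genes were tested. Because the types were formed from the same expression values, the limma threshold serves here as a rule for naming genes and not as a test of the types. Between Type 1 and the mean of Types 2 and 3, 32.8% of all tested genes passed (18.2% higher, 14.6% lower). Of 17 other matricellular genes, 2 were higher and 4 lower (median difference -0.28, against 0.01 over all genes). Ccn4, a CCN family protein of Wnt signalling, had a mean of 10.85 ± 0.43 over the Type 1 lines (n = 3), 7.52 ± 0.58 over Type 2 and 6.97 ± 0.41 over Type 3, a difference of 3.61 ± 0.28, and the elastic fibre gene Fbln5 was higher by 1.31 ± 0.37. The difference was -3.12 ± 0.42 for Ccn5, another CCN protein, -2.70 ± 0.49 for the tenascin Tnxb and -1.22 ± 0.44 for the fibulin Fbln1.

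Of 19 receptor genes, 7 were higher and 5 lower in Type 1 (median 0.11). The integrin subunit Itgb8 was higher by 3.44 ± 0.55, Itga6, a laminin receptor subunit, by 1.85 ± 0.53 and Vcam1, an adhesion receptor that also binds SPARC, by 1.84 ± 0.28. The difference was -1.997 ± 0.25 for Cacna2d1, a calcium channel subunit that serves as a thrombospondin receptor, -1.54 ± 0.21 for the syndecan Sdc1 and -1.30 ± 0.18 for the endocytic receptor Lrp1. The thrombospondin receptor Cd47 averaged 11.05 to 11.60 by group, and Cd36 2.93 to 3.12, so Cd36 was not tested.

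Of 22 matrix partners and proteases, 4 were higher and 8 lower in Type 1 (median 0.06). Tgfb3, a TGF-beta ligand, was higher by 2.84 ± 0.26, the membrane protease Mmp14 by 0.91 ± 0.31 and Tgfb2 by 0.85 ± 0.28. The difference was -5.00 ± 0.44 for Ltbp1, which holds latent TGF-beta in the matrix, -4.88 ± 0.43 for the collagen-degrading protease Ctsk and -1.93 ± 0.20 for the collagen Col5a1. Between Types 2 and 3, 0 of the 58 genes passed in limma, where 0.382% of all genes did. With depot in the model 2 of the 58 passed, and 5 without Other line 7. Between Other and the mean of the 3 types, where 5.73% of all genes passed (2.5% higher, 3.23% lower), 7 of the 58 were higher in Other and 2 lower. Type 1 enters that mean, so a gene that stands apart in Type 1 alone can be called. Ltbp1, called higher, averaged 9.45 in Other, 10.14 in Type 2, 9.71 in Type 3 and 4.92 in Type 1. Fstl1, also called higher, had its highest mean in Other (13.20, against 12.74 to 13.08). Of 12308 genes, 0 had every Other line above, or every one below, all Type 2 and Type 3 lines. On either score and for depot 0 of the 58 passed in limma.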

How the data were processed

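Expression was measured on 23 mouse arrays, 1 per clonal line, from biotin-labelled RNA (250 ng of total RNA), per the labels' protocols. The deposited values were read as log2 signal from their range, 2.03 to 14.46; the software named in the submitters' processing notes is MAS5, with no version, and no source used here states the scaling or the log step. Values were used as deposited, with no detection calls, and precision is limited by how many arrays there are. A total of 34958 probe sets had 1 gene symbol in the platform annotation, 932 several and 9211 none. Each gene took the probe set with the highest mean, and 12308 of 18194 genes, above the table median of 5.13 in at least 3 lines, were tested; all 8 members passed this filter.

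Groups follow the labels, and lines are numbered by accession order within a group, as names. Models were fitted in R 4.3.3 with limma 3.58.1 (lmFit, then eBayes), all 23 lines sharing an estimate of spread, with Benjamini-Hochberg adjustment over all tested genes and a threshold of 0.05. Both scores and depot were fitted with group in the model. Python 3.11.15 with numpy 2.4.6, pandas 2.3.3 and matplotlib 3.10.9 gave the descriptions and plots. The fits were tested on simulated data with known changes and independent noise. Changes of 0.5 log2 per score point were recovered for 89% of changed genes (differentiation) and 96% (acidification). Changes of 0.5 log2 between groups were recovered for 66% (depot) and 32% (Type 1). False calls numbered 13, 9, 8 and 6 in the same order, of 12308 genes. The members, the 3 companion lists and the marker lists were chosen with earlier results of these data known. Named genes are the members, the 3 genes with the highest r of deviations from group means to each member (predicted and clone names left out), the 3 called genes of each companion list with the largest difference in each direction for Type 1, and small counts of genes called elsewhere. Hk2, Cd47, Cd36, Fstl1 and the genes of the marker lists, apart from the fibroblast list, were named outside this rule, after their values were seen. Alternatives were another probe set rule, no filter, array centring, array weights, an offset, the clone-name number, depot or no group in the model, the extreme scores, and leaving out each line or all Type 1 lines.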

Additional observations from a re-analysis of the deposited data

Results flagged for a closer look

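Within groups of 5 to 8 lines, 24 sets of member values were checked for a line whose gap to its nearest neighbour took up more of the group's range than chance gives in about 1 of 20 groups, and 2 were found. Thbs2 lay at 11.20 in Other line 7, where the next line was at 13.23, a gap of 0.79 of the range of 7 lines. Mamdc2 lay at 4.96 in Other line 1, where the next was at 4.35, a gap of 0.61 of the range.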

How the results depend on the processing

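Apart from refits without a line, 318 member values stayed the same, 16 changed sign, and 1 crossed the threshold, the Sparcl1 slope with depot in the model (1.21). For slopes and depot differences, the same means an unchanged direction and side of the threshold. For differences between types, which were not tested, it means a move smaller than the gene's SD within groups. The Mamdc2 difference between Types 2 and 3 moved to 0.91 with the offset. The values that changed sign had not passed in the main analysis and are listed here by setting. With array weights, whose iteration stopped short of its tolerance in some fits, the differentiation slope was -0.11 for Thbs2 and -0.037 for Postn, the acidification slope 0.008 for Thbs1 and -0.016 for Mamdc2, and the depot difference 0.30 for Postn. Without group in the model the differentiation slope of Thbs1 was 0.12 and the acidification slopes of Thbs2 and Postn were -0.21 and -0.063. The acidification slope of Mamdc2 was -0.005 with the clone-name number, -0.017 with depot and -0.089 for score 4 against 1, and that of Thbs1 was 0.005 for score 4 against 1 and 0.019 without the Type 1 lines. With the clone-name number the depot difference was 0.19 for Thbs1 and 0.06 for Mamdc2. With the mean of its probe sets Sparc differed by -0.022 in depot effect between Type 3 and Other. Leaving out each line in turn, the differentiation slope of Thbs2 ran from -0.12 to 0.071, the acidification slopes from -0.026 to 0.032 (Thbs1), -0.033 to 0.046 (Mamdc2) and -0.008 to 0.22 (Postn), and the depot difference from -0.34 to 0.074 (Thbs2) and -0.42 to 0.44 (Postn). The Type 3 minus Other depot effects ran from -0.049 to 0.10 (Sparc), -0.28 to 1.10 (Sparcl1), -0.075 to 1.21 (Thbs2), -0.42 to 0.022 (Mamdc2) and -1.79 to 0.87 (Postn). With depot in the model and a line left out, Sparc reached 0.003 without Type 2 line 4 and Thbs2 -0.15 without Other line 7.

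Counts of genes past the threshold moved too. For the differentiation score there were 2 with depot in the model, and 0 to 5 with a line also left out. For acidification 4 passed at score 4 against 1, and for depot 1 with the differentiation score in the model. The depot effect in Type 3 minus Other gave 0 to 2 with a line left out. Type 1 against Types 2 and 3 gave 4042 genes, 7070 with array weights and 2639 to 4267 with a line left out, lowest without Type 1 line 1. Type 2 minus Type 3 gave 47 genes, 1 with the mean of probe sets, 9 without a filter, 1037 with array weights, 5 with the clone-name number, 133 with depot and 0 to 195 with a line left out; of the 58 companion genes 8 passed with array weights, 2 with depot and 0 to 5 with a line left out. Other against the 3 types gave 705 genes, and 455 to 1268 with a line left out. The causes were not tested. No paired analysis was possible because the labels number no replicates: the number inside the clone names, whose meaning they do not state, recurs in several lines of a group, and it was fitted as a term in the model, with the values given under that setting.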
